A study of Homo sapiens with 6 samples.

Results

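The genes described here encode the secreted Wnt ligands, the receptors that bind them and the proteins that restrain or amplify them, measured in heart muscle cells grown from human stem cells. The set was proposed with earlier results of these data known, and its members were then picked by gene symbol: the WNT and FZD families, SFRP1 to SFRP5, DKK1 to DKK4, RSPO1 to RSPO4, LGR4 to LGR6, ROR1, ROR2, LRP5, LRP6, FRZB, WIF1, AXIN2 and NKD1. The rule found 52 of the 35793 genes listed. The cells were cardiomyocytes of WTC11, an established human induced pluripotent stem cell line, collected on day 15 of differentiation without further treatment. One group was unedited WTC11 (wild type, WT). The other was a WTC11 derivative whose STK25 gene had been disrupted on both chromosomes with CRISPR/Cas9 (STK25KO). Each genotype had 3 biological replicates. The 6 libraries are called WT-1 to WT-3 and KO-1 to KO-3 by genotype and replicate. All knockout libraries came from 1 edited line, so the edit and any other difference between the lines cannot be told apart. The libraries are bulk RNA, in which fewer cells of a type and less RNA per cell cannot be told apart.

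Wnt proteins are lipid-bearing secreted ligands that bind Frizzled receptors. With the co-receptors LRP5 or LRP6 they stabilise β-catenin, which then works with TCF/LEF factors in the nucleus. Other Wnt signals, often through ROR1 or ROR2, act on cell shape and polarity without β-catenin. R-spondins bind LGR receptors and keep Frizzled proteins at the cell surface. Secreted Frizzled-related proteins capture Wnt ligands, and DKK1 blocks LRP5 and LRP6. In heart formation, early Wnt activity makes mesoderm and later inhibition favours the cardiac fate. Differentiation protocols of the kind the study's design cites switch the pathway on and then off with small molecules.

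STK25, the targeted gene, was compared first. Its normalized counts (reads divided by 1 factor per library) were 8874, 6774 and 8710.4 in the wild type and 3906, 3434 and 3819.7 in the knockout, a log2 fold change of -1.12 (SE 0.19, limma adjusted p = 0.00903). Without WT-1 the adjusted p was 0.0611. Each knockout library kept at least 3073 STK25 reads, counted over the whole gene and not over the edited part. STK25 also overlaps exons of FARP2, a counted protein-coding gene on the opposite strand, whose part in these reads was not tested. Reads assigned to genes ran from 22443904 to 53224112 per library. A principal component carrying 24.1% of the variance separated WT-2 and KO-1 from the rest. In these libraries the genes longest in exon sequence (top quartile) differed from the shortest (bottom quartile) by -0.47 and -0.35 on the log2 scale of deviations from the genotype mean. In the other 4 this difference was 0.015 to 0.32. All 10 cardiomyocyte markers, among them TNNT2, MYH6, MYH7 and ACTN2, had reads in every library of both genotypes. NKX2-5 alone of these had a limma adjusted p under 0.05, lower in the knockout, where 6.79% of all tested genes were. MYH6, MYH7, MYL7, ACTN2, TNNI3 and TTN did not pass, but their genotypes did not overlap, as in 33.4% of all tested genes.

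Of the 52 Wnt genes, 32 averaged 10 or more normalized counts over the libraries. They were tested with limma together with all 15536 genes at this level. Differences below are on the log2(normalized count + 1) scale, knockout minus wild type, with the SE of the fit and Benjamini-Hochberg adjusted p-values. Past the threshold of 0.05 were 15 of the 32, with 4 higher and 11 lower in the knockout. Over all tested genes 12.8% passed, 5.97% higher and 6.79% lower. The median of the 32 log2 fold changes was -0.05 and the median of their sizes was 1.03, beside 0.01 and 0.46 over all genes. DKK2, SFRP2 and SFRP4 reached the level of 10 only through the genotype in which they were high, so that they had to differ. Among the 29 genes whose mean was at least 10 in both genotypes, 12 passed, 2 higher and 10 lower. Over these 29 the median size of the log2 fold changes was 0.81. The 3 libraries of one genotype lay wholly above those of the other in 17 of the 32 genes, 5 higher and 12 lower. Among the 29 this held for 14, 3 higher and 11 lower. Over all genes the share was 33.4% (16.2% higher and 17.2% lower). An exact permutation test of 3 against 3 values can give no two-sided p below 0.1, so it was not used for single genes. Without WT-2 and KO-1 together, a fit chosen after seeing the data, 18 Wnt genes passed, 14 of them among the 15. In that fit 4706 of 15381 genes passed, against 1982 of 15536 in the main fit, so passing was far more common there. Without WT-1, 9 Wnt genes passed, where 792 of all 15503 tested genes did.

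**Figure D1:**
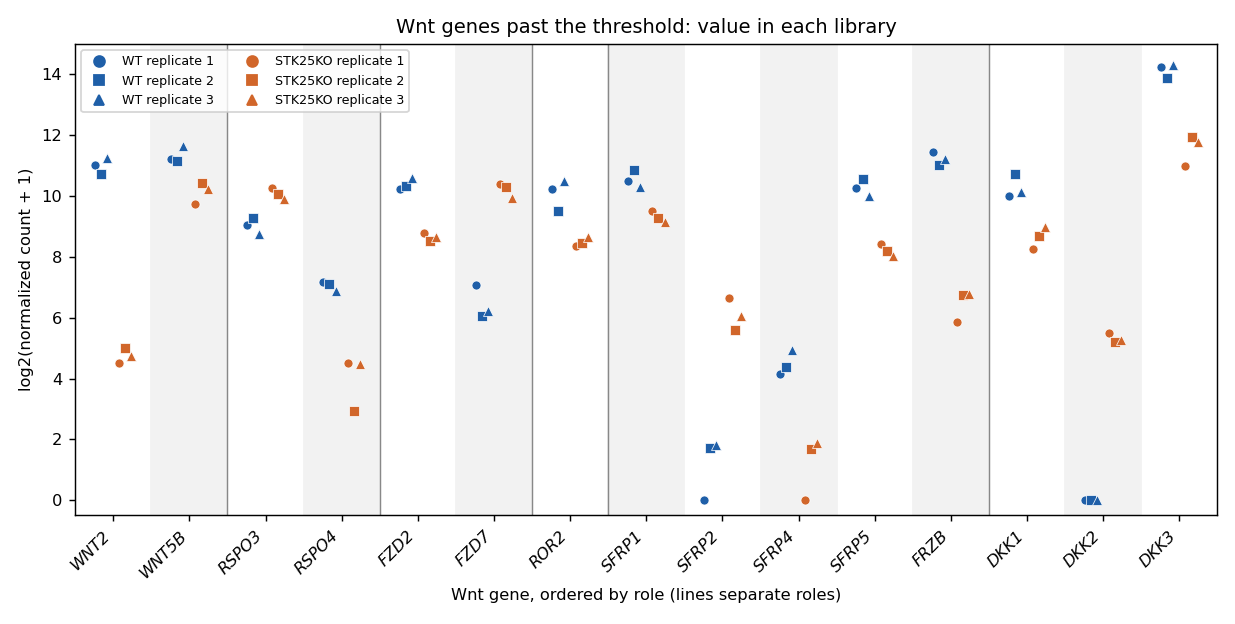
Values of the 15 Wnt genes past the threshold. The vertical axis is log2(normalized count + 1) and each point is 1 library, blue for wild type (WT) and orange for the knockout (STK25KO), with the marker shape giving the replicate. In each gene the 3 points of one colour lie above the 3 of the other, and DKK2 lies at 0 in all 3 wild-type libraries.

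Of the 19 WNT ligands 6 were tested. WNT2 and WNT5B fell, and the other 4 did not pass, beside the 12.8% of all genes that did. WNT2, a ligand that acts in early heart and lung development, was nearly lost. It had 2079.9, 1685 and 2444 normalized counts in the wild type and 21.6, 31.2 and 25.8 in the knockout, where the mean was 1.27% of that in the wild type. The genotypes were far apart, with a log2 fold change of -6.25 (SE 0.29, limma adjusted p = 5.66e-05). By p-value WNT2 ranked 8 among the 15536 genes. It lies on chromosome 7 from 117275451 to 117323289 (GENCODE 29, GRCh38) and shares exon sequence with the antisense gene AC002465.1, whose reads cannot be told apart from its own, since the library kit does not mark strand.

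WNT5B (chromosome 12, 1529891 to 1647243), a ligand known mostly for signalling without β-catenin, had 2374, 2251.5 and 3230.3 normalized counts in the wild type and 862, 1388 and 1189.99 in the knockout. Its genotypes did not overlap. The log2 fold change was -1.20 (SE 0.25, limma adjusted p = 0.0199), and the adjusted p was 0.0746 without WT-1, 0.0837 without WT-3 and 0.0682 without KO-3.

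WNT11 and WNT5A, the other abundant ligands and both linked to cardiac development, did not pass. WNT11, which shares exon sequence with the antisense gene AP000785.1, had 1177, 1384 and 1084 normalized counts in the wild type. In the knockout it had 1032, 1157 and 1416, with a log2 fold change of -0.02 (SE 0.21, limma adjusted p = 0.966). WNT5A ranged from 1047 to 1619 in wild-type and from 1233 to 1842 in knockout libraries, with a log2 fold change of 0.05 (SE 0.26, limma adjusted p = 0.932). In both the genotypes overlapped. The sign of each turned under other settings, among them equal upper quartiles for WNT11 and equal library totals for WNT5A.

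WNT3, which signals through β-catenin, had from 117 to 209 normalized counts in wild-type and from 269.7 to 321 in knockout libraries. Its genotypes did not overlap, but the log2 fold change of 0.81 (SE 0.31) had a limma adjusted p of 0.135. Without WT-2 and KO-1 together the adjusted p was 0.0449. WNT2B, the closest relative of WNT2, varied from 7.62 to 33.2 in wild-type and from 14.5 to 139.8 in knockout libraries (log2 fold change 1.47, SE 0.90, limma adjusted p = 0.347). It overlaps the exons of ST7L.

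The other 13 WNT genes were below the level tested. WNT1, WNT3A, WNT8A and WNT8B were at 0 in all 6 libraries. WNT4, WNT6, WNT7A, WNT7B, WNT9A, WNT9B, WNT10A, WNT10B and WNT16 had at most 15.6 normalized counts in any library.

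To compare levels between genes, normalized counts were divided by the length of merged GENCODE exons, in kb. On this scale the ligands of the wild type were led by WNT5B at 608 ± 124 (SD, n = 3), WNT11 at 506 ± 64.0, WNT2 at 460.2 ± 84.5 and WNT5A at 191 ± 43.3. The first 3 of these differed by little more than their spread. In the knockout WNT11 stood at 500.5 ± 81.5, WNT5B at 266 ± 61.7, WNT5A at 197 ± 44.97 and WNT3 at 67.8 ± 5.92, while WNT2 was at 5.83 ± 1.07. WNT2 thus made up 25.2% ± 2.47 of the summed ligand level in the wild type and 0.554% ± 0.0546 in the knockout. The summed level was 1814.5 ± 169 in the wild type and 1051 ± 146 in the knockout. WNT11, with a near-equal level in both, made up 28.2% ± 6.01 and 47.7% ± 4.76. These lengths include all annotated isoforms, so the order of genes is approximate.

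**Figure D2:**
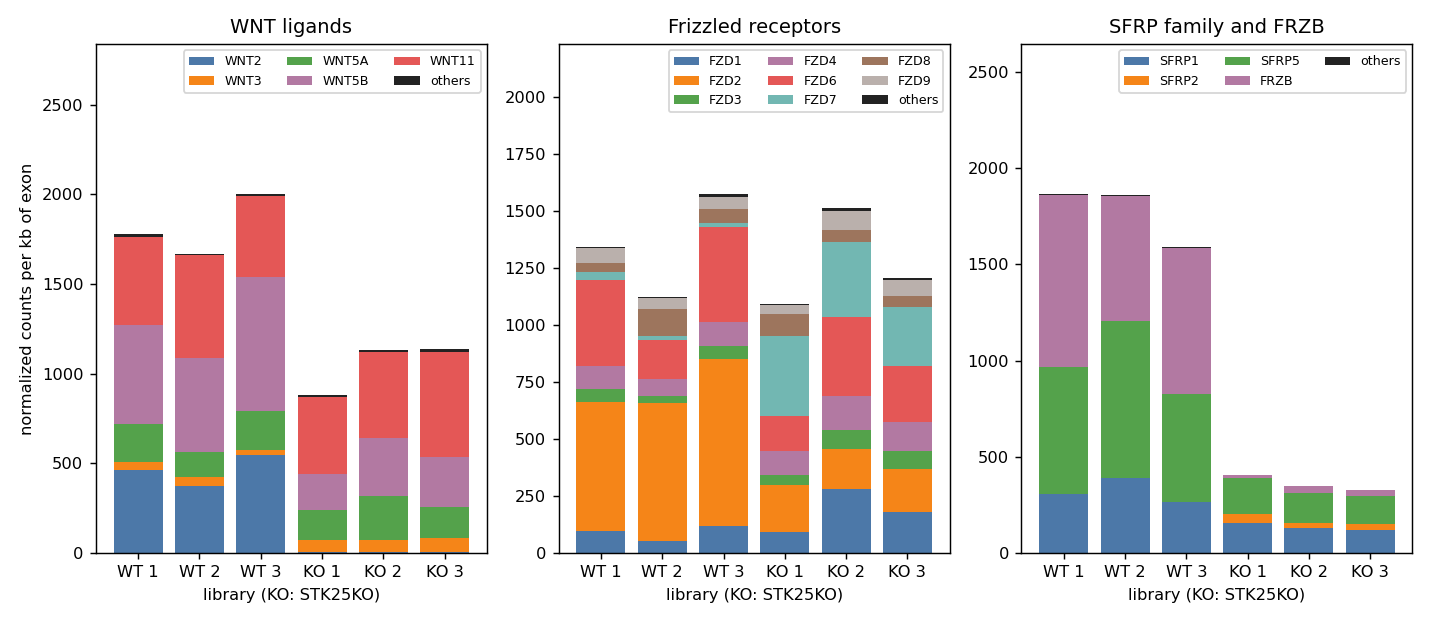
Normalized counts per kb of merged exon, stacked by gene, in each library (KO, knockout) for the WNT ligands, the Frizzled receptors and the SFRP family with FRZB. The WNT2 and FRZB segments of the wild type all but disappear in the knockout, and FZD7 appears there beside a smaller FZD2.

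The R-spondins that were expressed moved in opposite directions. RSPO3, an amplifier of Wnt signals with roles in the heart and its vessels, rose, and RSPO4, known from nail development, fell. RSPO3 (chromosome 6, 127118604 to 127197765) had 529, 618 and 432 normalized counts in the wild type and 1232, 1069 and 967 in the knockout, a log2 fold change of 1.06 (SE 0.23, limma adjusted p = 0.0221). Its call was lost without WT-1, WT-3, KO-2 or KO-3, with adjusted p-values up to 0.0926, and with equal library totals (adjusted p = 0.0580). RSPO4 (chromosome 20, 958452 to 1002264) had 142, 137 and 117 in the wild type and 21.6, 6.69 and 21.3 in the knockout, a log2 fold change of -3.08 (SE 0.54, limma adjusted p = 0.0102), with an adjusted p of 0.0573 without WT-1. The genotypes did not overlap in either gene.

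RSPO1 and RSPO2 had at most 8.92 normalized counts in any library and were not tested. Among the R-spondin receptors, LGR5 had reads in KO-3 alone (39.1 normalized counts), LGR6 in WT-3 alone (4.47), and LGR4 was tested. It had 6267, 2526 and 8460.4 normalized counts in the wild type and 1271, 4662 and 4261 in the knockout, and the lowest value of each genotype was in the library set apart above (log2 fold change -0.80, SE 0.60, limma adjusted p = 0.44). Without these 2 libraries the value was -0.71 with an adjusted p of 0.00663. With the trend with exon length removed from every library it was -0.79 with an adjusted p of 0.357.

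Among the 10 Frizzled receptors, FZD2 fell and FZD7 rose, and the other 7 tested did not pass. Over all tested genes 12.8% passed, 5.97% higher and 6.79% lower. FZD1, FZD2 and FZD7 form a subfamily of close relatives. FZD2 (chromosome 17, 44557459 to 44559570) had 1204, 1278 and 1545 normalized counts in the wild type and 439, 364 and 398 in the knockout. Its knockout mean was 29.8% of the wild-type mean (log2 fold change -1.74, SE 0.21, limma adjusted p = 0.00231). FZD7 (chromosome 2, 202034587 to 202038445), the Frizzled most associated with pluripotent stem cells and mesoderm, had 133, 66.3 and 74.0 in the wild type and 1354, 1265 and 990.03 in the knockout. That is a 13.2-fold higher mean (log2 fold change 3.77, SE 0.33, limma adjusted p = 0.000572). Neither gene's genotypes overlapped, and both calls held in all 19 alternative settings.

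FZD1, the third of the subfamily, had 651, 353 and 818 normalized counts in the wild type and 625, 1963 and 1255 in the knockout. The genotypes overlapped through KO-1, and the log2 fold change of 1.01 (SE 0.47) had a limma adjusted p of 0.213. Without that library it was 1.45 with an adjusted p of 0.0497. Per kb of exon, FZD2 was the leading Frizzled of the wild type at 636 ± 85.0 (SD, n = 3). FZD7 had the highest mean of the knockout at 312 ± 49.1, followed by FZD6 at 247 ± 96.5 and FZD2 at 189.6 ± 17.6. In KO-2 FZD6 lay above FZD7 (345 and 328). FZD7 made up 1.77% ± 0.704 of the summed Frizzled level in the wild type and 25.04% ± 6.18 in the knockout. The summed level of FZD1, FZD2 and FZD7 was 746 ± 106 in the wild type and 685 ± 84.8 in the knockout, and that of all Frizzleds 1345 ± 226 and 1269.8 ± 218. Both sums overlapped between genotypes.

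The Frizzleds that did not pass had log2 fold changes from -0.36 (FZD6) to 0.46 (FZD4), leaving FZD1 aside, and limma adjusted p-values from 0.272 to 0.966. FZD4, which also binds the non-Wnt ligand norrin and overlaps exons of PRSS23, ranged from 541 to 788 in wild-type and from 782 to 1111 in knockout libraries, and FZD3 from 459 to 802 and from 589.8 to 1167. FZD6, an inhibitor of β-catenin signalling in some settings, ranged from 699.98 to 1679 and from 618 to 1402. Its lowest values were in the libraries set apart above. FZD8 ranged from 165 to 481 and from 204 to 404, FZD9 from 104 to 145.0 and from 86.4 to 193, and FZD5 from 31.2 to 79.7 and from 29.2 to 88.1. In these 3 the genotypes overlapped almost wholly. FZD10 had at most 0.638 normalized counts in any library.

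Of the 4 co-receptors ROR2 fell and the others did not pass, beside the 12.8% of all tested genes that did. ROR2 (chromosome 9, 91563091 to 91950162), a receptor tyrosine kinase best known as a receptor of WNT5A, had 1192, 728 and 1439.7 normalized counts in the wild type and 324, 348 and 399.9 in the knockout. The genotypes did not overlap, with a log2 fold change of -1.59 (SE 0.29, limma adjusted p = 0.0124). Without WT-1 or WT-3 the adjusted p was 0.0687 and 0.0540. ROR1, its relative, had from 3122 to 3579.8 in wild-type and from 1876 to 2449 in knockout libraries. Those ranges were also separate, and the log2 fold change of -0.64 (SE 0.19) had a limma adjusted p of 0.0606. It passed with equal library totals, with DESeq2, without KO-1, and without both libraries set apart above, with adjusted p-values from 0.00227 to 0.0381.

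LRP5 and LRP6 carry the β-catenin signal. LRP6 ranged from 396 to 854 in wild-type and from 471.02 to 731 in knockout libraries (log2 fold change -0.04, SE 0.34, limma adjusted p = 0.954). LRP5 had 698, 231 and 523 in the wild type and 89.0, 604 and 508 in the knockout (log2 fold change -0.54, SE 0.75, limma adjusted p = 0.708), the lowest value of each genotype again in the library set apart. Without KO-1 the LRP5 value was 0.34.

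Of the secreted Frizzled-related antagonists, SFRP1, SFRP5 and FRZB averaged at least 10 normalized counts in both genotypes, and these 3 fell, where 6.79% of all tested genes did. SFRP2, higher in the knockout, and SFRP4, lower in it, also passed, but they were tested only through the genotype in which they were high. FRZB (chromosome 2, 182833275 to 182867162), also called SFRP3, had 2817, 2063 and 2388 normalized counts in the wild type and 57.2, 107 and 109 in the knockout. That is 3.76% of the wild-type mean (log2 fold change -4.76, SE 0.31, limma adjusted p = 0.000198). SFRP5 (chromosome 10, 97766751 to 97771952), a marker of progenitors of the venous pole of the heart, had 1219, 1496 and 1034 in the wild type and 342, 293 and 262 in the knockout (log2 fold change -2.05, SE 0.24, limma adjusted p = 0.00185). In both genes the genotypes were well separated, and the calls held in all 19 alternative settings.

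SFRP1 (chromosome 8, 41261958 to 41309497), expressed by developing cardiomyocytes, had 1452, 1849 and 1256 normalized counts in the wild type and 731, 614 and 564 in the knockout. The log2 fold change was -1.24 (SE 0.23, limma adjusted p = 0.0124), and the adjusted p was 0.0624 without WT-1 and 0.0595 without KO-3. SFRP4 (chromosome 7, 37905932 to 38025695), the nearest relative of FRZB, was low throughout, with 11, 26 and 46 reads in the wild type and 0, 2 and 3 in the knockout. Its normalized counts were 16.6, 19.8 and 29.3 against 0, 2.23 and 2.67. Pooled over libraries, it was 13.2-fold higher in the wild type, with an exact 95% interval from 5.42 to 41.6 that covers counting error only. Its limma adjusted p was 0.0413, and this call was lost in 7 alternative settings, among them those without WT-1, WT-2, KO-2 or KO-3, with adjusted p-values up to 0.124.

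SFRP2 (chromosome 4, 153780592 to 153789120), a relative of SFRP1 and SFRP5 typical of mesenchymal cells, went the other way. It had 0, 3 and 4 reads in the wild type and 78, 43 and 73 in the knockout, or 0, 2.29 and 2.55 against 99.1, 47.9 and 64.9 normalized counts. The pooled ratio was 34.95 with an exact 95% interval from 16.6 to 88.1 for counting error (log2 fold change 4.92, SE 0.75, limma adjusted p = 0.00595). In level the rise of SFRP2 was small beside the falls of its relatives. Summed over the 5 genes, the level per kb of exon came to 1773 ± 157 in wild-type and 361 ± 40.9 in knockout libraries (SD, n = 3), and SFRP2 supplied 9.51% ± 2.60 of the latter.

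Of the Dickkopf genes, DKK1 and DKK3 averaged at least 10 normalized counts in both genotypes and DKK2 in the knockout alone. DKK1, the LRP5 and LRP6 blocker, and DKK3, a divergent member that does not bind them, fell, where 6.79% of all tested genes did. DKK2, which can block or help LRP6 depending on the cell, rose. DKK1 (chromosome 10, 52314296 to 52318042) had 1014, 1709 and 1129.7 normalized counts in the wild type and 304, 415 and 506 in the knockout, a log2 fold change of -1.64 (SE 0.29, limma adjusted p = 0.0112). It shares exon sequence with the antisense gene PRKG1-AS1. DKK3 (chromosome 11, 11963106 to 12009769) had 19419.8, 14984 and 20279.9 in the wild type and 2019, 3932 and 3535 in the knockout, a log2 fold change of -2.57 (SE 0.29, limma adjusted p = 0.00159). Per kb of exon DKK3 had a level of 3603 ± 562 (SD, n = 3) in the wild type and 625 ± 200 in the knockout, the highest of the 52 genes in each.

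DKK2 (chromosome 4, 106921802 to 107283806) had no read in any wild-type library and 35, 32 and 42 reads in the knockout, or 44.5, 35.7 and 37.3 normalized counts. Against a floor of 3 reads in each wild-type library it was at least 13.5-fold higher in the knockout (limma adjusted p = 0.00387). The calls of DKK1, DKK2 and DKK3 held wherever the gene was tested. DKK4 was at 0 in all 6 libraries, and WIF1, another secreted Wnt-binding antagonist, had at most 6.04 normalized counts in any.

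**Figure D3:**
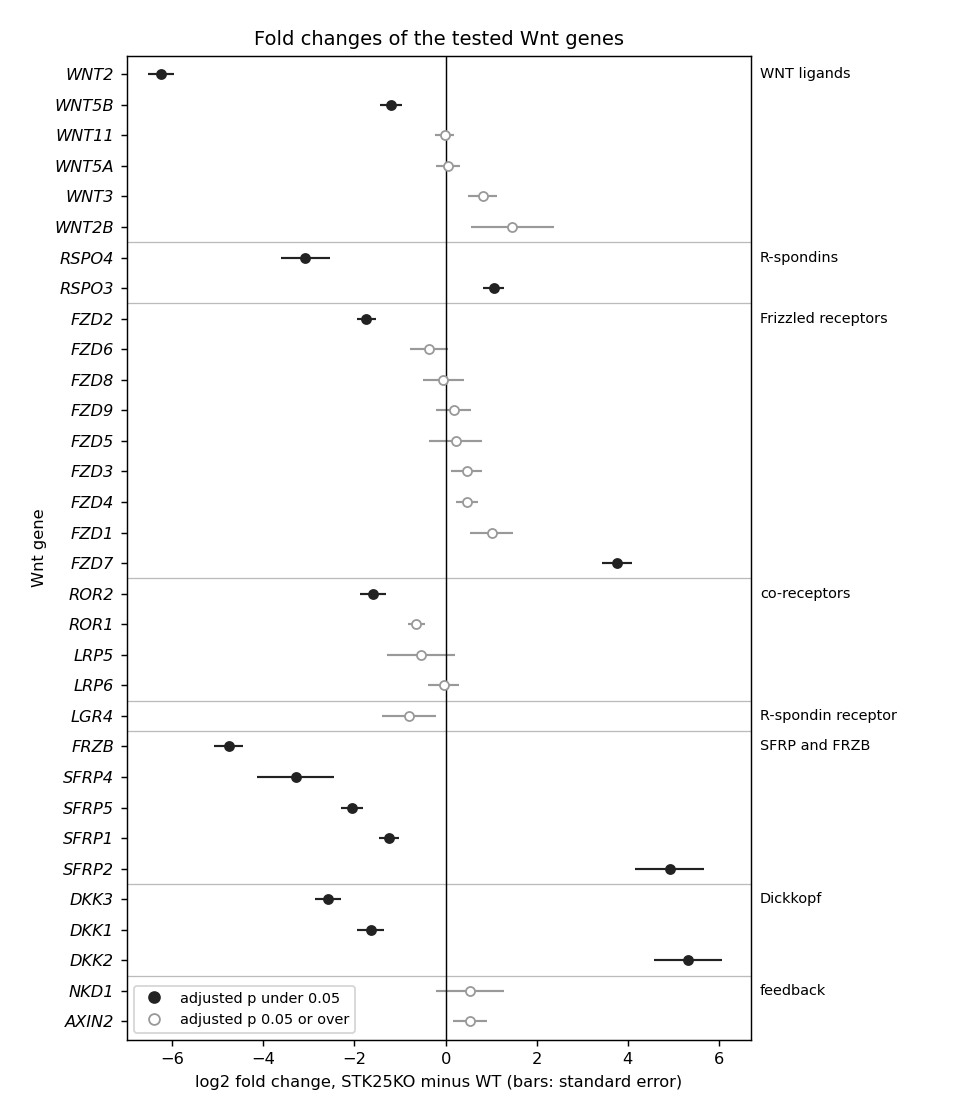
Log2 fold change, knockout minus wild type, of the 32 tested Wnt genes grouped by role. Bars are the standard error of the limma fit, and filled points have an adjusted p under 0.05. SFRP1, SFRP5, FRZB, DKK1 and DKK3 are filled to the left of 0. SFRP4 (left), SFRP2 and DKK2 (right) are filled too but were tested only through the genotype in which they were high, while the feedback genes AXIN2 and NKD1 are open.

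Sequence before the start site is shown for DKK1, a known β-catenin target, and for 2 pairs of relatives that moved in opposite directions, SFRP5 with SFRP2 and RSPO4 with RSPO3. RefSeq promoters (GRCh38.p14) were matched for 35 of the 52 genes. Not matched were WNT7B, WNT10B, WNT11, RSPO2, FZD2, FZD3, FZD6, FZD7, FZD10, LRP6, LGR5, SFRP1, DKK2, DKK3, DKK4, AXIN2 and NKD1. Each stretch starts 250 bases before the start site and runs 5′ to 3′ on the gene's strand, ending earlier where annotated UTR begins. Capitals mark matches, on either strand, to motifs of factors that act with Wnt signals or in the heart. The core of TCF/LEF factors was searched as CTTTGA, and the motif of the cardiac GATA factors was searched with the letters AGATAA. The motif of the homeodomain factor NKX2-5 was taken to be TNAAGTG, and that of the TEAD factors was written as GGAATG. None of these motifs overlap in the stretches shown.
DKK1, chr10:52314031-52314280, plus strand: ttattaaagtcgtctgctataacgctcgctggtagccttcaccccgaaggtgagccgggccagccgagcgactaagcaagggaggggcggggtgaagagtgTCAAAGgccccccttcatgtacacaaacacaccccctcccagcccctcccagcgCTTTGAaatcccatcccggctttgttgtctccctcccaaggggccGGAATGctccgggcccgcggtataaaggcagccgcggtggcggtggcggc
SFRP5, chr10:97772000-97772249, minus strand: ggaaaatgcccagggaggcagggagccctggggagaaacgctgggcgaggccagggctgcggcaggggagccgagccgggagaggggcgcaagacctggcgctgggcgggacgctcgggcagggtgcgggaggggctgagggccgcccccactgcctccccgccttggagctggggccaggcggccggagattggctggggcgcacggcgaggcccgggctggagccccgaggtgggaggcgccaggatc
SFRP2, chr4:153789121-153789333, minus strand: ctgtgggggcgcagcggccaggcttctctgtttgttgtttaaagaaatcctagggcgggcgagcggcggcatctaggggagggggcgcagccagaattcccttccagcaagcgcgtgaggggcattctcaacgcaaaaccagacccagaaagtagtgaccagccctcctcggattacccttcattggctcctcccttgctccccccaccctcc
RSPO4, chr20:1002312-1002561, minus strand: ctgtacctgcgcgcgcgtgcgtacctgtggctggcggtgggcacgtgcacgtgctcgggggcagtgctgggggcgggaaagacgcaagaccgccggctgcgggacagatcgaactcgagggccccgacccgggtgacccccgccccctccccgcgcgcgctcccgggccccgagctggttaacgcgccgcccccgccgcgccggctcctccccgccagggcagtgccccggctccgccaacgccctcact
RSPO3, chr6:127118421-127118603, plus strand: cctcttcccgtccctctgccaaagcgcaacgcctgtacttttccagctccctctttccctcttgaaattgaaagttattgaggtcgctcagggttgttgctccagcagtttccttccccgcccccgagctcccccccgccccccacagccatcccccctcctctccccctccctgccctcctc

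The DKK1 stretch held 2 TCF/LEF cores, beginning 149 and 95 bases before the start, and 1 TEAD motif beginning 50 bases before it. DKK1 was the only gene of the 35 with the TCF/LEF core in the 250 bases (2.86%), against 11.2% of 35116 RefSeq promoters cut to the same length. It was also the only one with the TEAD motif, held by 11.9% of all promoters. The GATA motif was found in 3 of the 35 genes (WNT8B, LGR6 and FRZB), against 9.17%, and the NKX2-5 motif in 3 (WNT2B, WNT8B and LGR6), against 8.73%. A gene counted if any of its promoters matched, while the shares of all are per promoter, so the measures are not alike. Not every promoter of LGR6 and WNT2B matched, and the FRZB match lay in a stretch that was wholly annotated UTR. The SFRP and RSPO stretches held no match to any of the 4. In base composition the relatives differed: over the 250 bases the GC content was 76.8% for SFRP5, 57.6% for SFRP2, 77.2% for RSPO4 and 64.8% for RSPO3. A match is a string of letters, not a measured binding site.

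The feedback genes did not pass with limma, and neither had an unadjusted p under 0.05 or passed with edgeR or DESeq2. AXIN2, which overlaps exons of AC004805.1 and is a widely used readout of β-catenin signalling that in turn restrains it, had 109, 151 and 200.3 normalized counts in the wild type and 164, 309.8 and 197 in the knockout (log2 fold change 0.53, SE 0.37, limma adjusted p = 0.407). NKD1, an inhibitor induced by Wnt signals, ranged from 6.09 to 41.5 and from 17.8 to 34.3 (log2 fold change 0.53, SE 0.75, limma adjusted p = 0.711). In both the genotypes overlapped. Missing the threshold does not show that their levels were equal.

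Other genes of the pathway were taken from a list of 54 that are not among the 52. Of these 51 were tested and 11 passed, 5 higher and 6 lower, or 21.6% beside the 12.8% over all genes. The median log2 fold change of the 51 was 0.02. Without WT-2 and KO-1 together 20 passed, where 4706 of all 15381 tested genes did. Without WT-1, WT-3 or KO-3 there were 4 each time, where 792, 911 and 963 of all genes passed. Without WT-2 there were 6 and without KO-2 there were 7, where 1565 and 1270 of all genes passed.

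Outside the cell, GPC3 and APCDD1 had the largest changes. GPC3, a heparan sulphate proteoglycan that binds Wnt ligands, had 929, 751 and 1003 normalized counts in the wild type and 7240.3, 11374 and 11122 in the knockout (log2 fold change 3.45, SE 0.24, limma adjusted p = 0.000243). APCDD1, a membrane inhibitor that binds Wnt and LRP5, had 1669, 1639.9 and 1918 in the wild type and 17.8, 54.6 and 90.6 in the knockout (log2 fold change -5.25, SE 0.54, limma adjusted p = 0.00117). WLS, which carries Wnt proteins to the surface, rose by 0.97 (SE 0.22, limma adjusted p = 0.0253). Its call was lost with equal library totals (adjusted p = 0.163) and without any 1 library other than KO-1, with adjusted p-values up to 0.120.

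At the membrane CELSR1 and VANGL1, components of planar cell polarity, and RNF43, a ligase that removes Frizzleds, fell. CELSR1 had 609, 537 and 319 normalized counts in the wild type and 123, 106 and 127 in the knockout (log2 fold change -1.98, SE 0.32, limma adjusted p = 0.00751). RNF43 had a log2 fold change of -1.44 (SE 0.37, limma adjusted p = 0.0412) and VANGL1 of -1.18 (SE 0.31, limma adjusted p = 0.0439). The RNF43 call was lost in the fits without each library in turn, except KO-1, and that of VANGL1 in those fits except the one without KO-2, with adjusted p-values up to 0.157. ZNRF3, the partner of RNF43, had a log2 fold change of -0.40 (SE 0.35, limma adjusted p = 0.527), and without WT-2 and KO-1 together it was -0.84 with an adjusted p of 0.0277.

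In the cytoplasm none of 17 genes passed with limma, beside the 12.8% of all tested genes that did. Among the 17 were CTNNB1, which encodes β-catenin, APC, AXIN1, GSK3B and the 3 DVL genes. The median log2 fold change of the 17 was 0.28. In 7 of the 17 the knockout libraries lay wholly above those of the wild type, against 16.2% of all genes, and in 0 wholly below. At an unadjusted p under 0.05 there were 2 of the 17, DVL1 and DAAM1, and edgeR and DESeq2 gave 0 at an adjusted p under 0.05. Without WT-2 and KO-1 together, DAAM1 (log2 fold change 0.52, adjusted p = 0.0183) and PRICKLE1 (-0.83, adjusted p = 0.000797), both of planar cell polarity signalling, passed. Of the 13 genes of the nucleus 3 passed, beside the 12.8% of all tested genes. All 3 were among the 4 TLE co-repressors. TLE4 rose by 1.24 (SE 0.24, limma adjusted p = 0.0143), TLE3 rose by 1.14 (SE 0.29, limma adjusted p = 0.0422) and TLE2 fell by 1.09 (SE 0.26, limma adjusted p = 0.0323). TLE1 did not pass, at a log2 fold change of 1.76 (SE 0.56, limma adjusted p = 0.0826). Its genotypes did not overlap, and it passed with DESeq2 (adjusted p = 0.00749) and without WT-2 and KO-1 together (2.60, adjusted p = 0.000915). The TLE4 call was lost without WT-1, WT-3 or KO-3. The TLE2 call was lost without any 1 library other than KO-1, and the TLE3 call without any 1 of the 6, with adjusted p-values up to 0.154. The TLE3 call was also lost with equal library totals (adjusted p = 0.119). The TCF/LEF factors TCF7, LEF1, TCF7L1 and TCF7L2 did not pass, with log2 fold changes of -0.40, 0.42, 0.77 and -0.29 and limma adjusted p-values from 0.180 to 0.527.

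Of 5 feedback and target genes, SP5 was below the level tested, with at most 7.998 normalized counts in any library. MYC, a growth regulator with many inputs besides Wnt, had 36.3, 31.2 and 65.1 in the wild type and 472, 671 and 669 in the knockout (log2 fold change 3.80, SE 0.37, limma adjusted p = 0.000968). TNFRSF19, a receptor of the TNF family, fell by 2.34 (SE 0.55, limma adjusted p = 0.0314). Its call was lost without WT-1, WT-3 or KO-3, with adjusted p-values up to 0.122. CCND1 and BAMBI, both targets of β-catenin among other inputs, had limma adjusted p-values of 0.381 and 0.616 at log2 fold changes of 0.28 and 0.19.

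**Figure D4:**
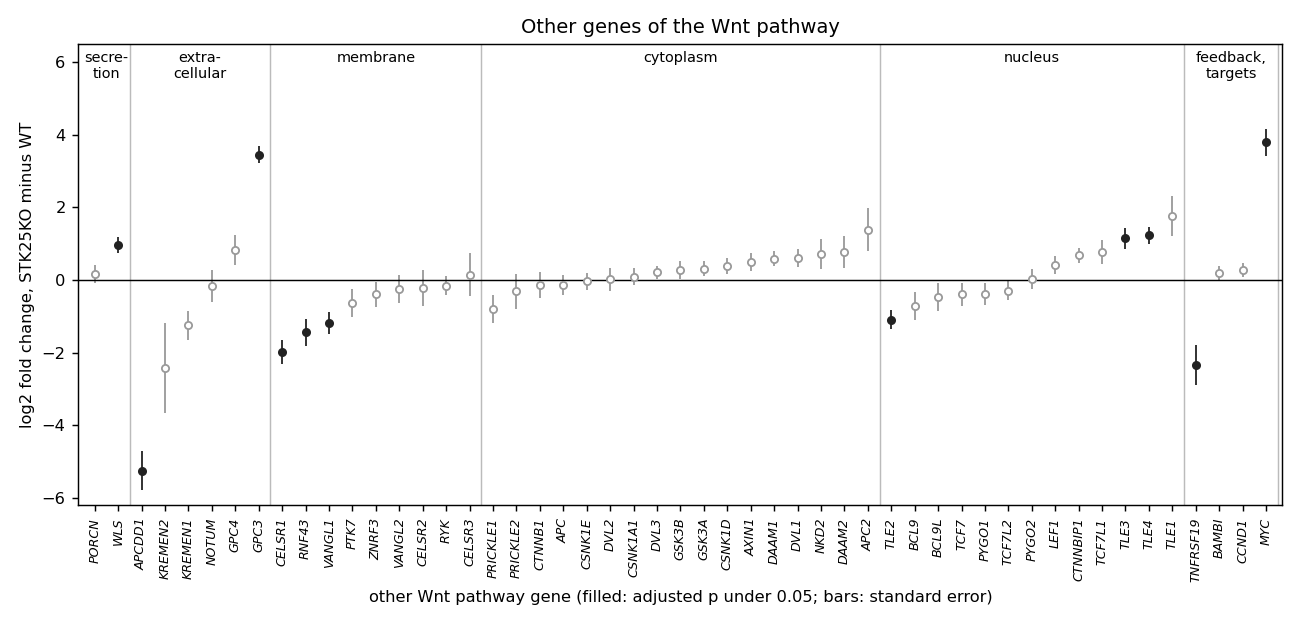
Log2 fold change, knockout minus wild type, of the 51 tested genes among 54 other genes of the Wnt pathway, by site of action. Bars are the standard error of the limma fit and filled points have an adjusted p under 0.05. The filled points lie outside the cell, at the membrane, in the nucleus and among the targets, and none of the 17 cytoplasmic genes is filled. Over all tested genes 12.8% passed.

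Markers of other cell types also differed between the genotypes. Over all tested genes 5.97% passed higher and 6.79% lower in the knockout. All 4 smooth muscle markers (ACTA2, MYH11, TAGLN and CNN1) rose, with a summed level of 77993 to 87796 normalized counts in the wild type and 486822 to 536050 in the knockout. Among 7 epicardial markers 2 rose (TCF21 and ALDH1A2), with sums from 328 to 355 and from 1150.4 to 1319.6. TCF21 averaged 22.2 in the wild type and 467 in the knockout, and ALDH1A2 averaged 6.37 and 189. WT1 and TBX18 were higher in the knockout without passing. UPK3B, UPK1B and BNC1 overlapped between genotypes, and the mean of UPK1B was lower in the knockout (52.4 and 23.2). Of 8 fibroblast and stromal markers COL3A1, DCN and THY1 rose and COL1A2 fell, and their sums overlapped, from 12924 to 26543 in wild-type and from 7871 to 16398 in knockout libraries. Of 6 neural markers SOX2, PAX6 and TUBB3 were tested and rose, with sums over the 6 from 35.7 to 120 and from 444 to 814. SOX2 and PAX6 were tested only through the knockout. The untested DCX and STMN2 averaged 4.17 and 5.81 normalized counts in the wild type and 0.296 and 1.93 in the knockout. ALDH1A2 was likewise tested only through the knockout and AFP, an endoderm and liver marker, only through the wild type. Of 5 pluripotency markers 1 of the 4 tested rose (TDGF1), with sums from 905 to 979 and from 3079.9 to 4462. TDGF1 itself averaged 560 in the wild type and 3516 in the knockout, so the rise of the sum was mostly its own. LIN28A averaged 122 and 133, DPPA4 250 and 308, POU5F1 9.02 and 32.7, and NANOG 6.62 and 9.91. Of 6 endothelial markers 3 were tested and 0 passed with limma, edgeR or DESeq2, also at an unadjusted p under 0.05 with limma. Their sums ran from 139 to 466 and from 367 to 545, and the defining markers CDH5, TIE1 and VWF were at or near 0. Of 7 endoderm and liver markers 1 of the 3 tested fell (AFP), with sums from 1663 to 3008 and from 1197 to 1252, and FOXA2 was at 0 throughout. APOA1, which did not pass, made up most of these sums, averaging 2026 in the wild type and 1195 in the knockout. The summed level of the 10 cardiomyocyte markers ran from 1258400 to 1570110 in wild-type and from 1818900 to 3330220 in knockout libraries. MYL7 was the largest part of it, averaging 541523 and 1481020. None of the 10 passed as higher. MYL7, MYH7, ACTN2, TNNI3 and TTN lay wholly higher in the knockout. MYH6 and NKX2-5 lay wholly lower, at 43.6% and 30.6% of the wild-type mean, and TNNT2, TNNI1 and RYR2 overlapped. Whether the other cell types were present in these samples was not tested. Nor was the part of any cell type in the values of SFRP2, DKK2, RSPO3, FZD7 and the other Wnt genes.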

How the data were processed

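RNA from the 6 samples was copied into cDNA (Clontech Ultra Low v4) and made into Nextera XT libraries, per the labels' protocols. The submitters' processing notes name bcl2fastq 2.19, kallisto 0.44.0, DESeq2 1.28.1 and GRCh38, without their roles or settings. The values deposited by the authors are 1 table of signal, read counts per gene divided by 1 factor per library, called normalized counts here. In each library all values (100%) were whole multiples, within 0.01, of the value of 1 read, so whole reads were recovered. No deposited column of samples was left out. The annotation and use of strand are not given in the sources used here.

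Values were tested as log2(value + 1) with limma 3.58.1 (trend, two-sided, R 4.3.3) over genes with a mean of at least 10, without a replicate term. edgeR 4.0.16 (quasi-likelihood) and DESeq2 1.42.0 on recovered reads, other scalings, pseudocounts and filters, and leaving out libraries were alternatives. Of the 19 alternatives 2 were chosen after seeing the data: leaving out WT-2 and KO-1 together, and removing a trend with exon length. Figures were drawn with matplotlib 3.10.9. Gene positions and exon lengths are from GENCODE 29 (GRCh38). Besides the overlaps named above, exons of WNT4, FZD6, FZD8, LGR5 and NKD1 overlap those of other annotated genes. Replicates differed by more than sampling noise. The labels call them biological replicates without saying what separated them, so p-values measure the spread between these samples.

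All 52 genes of the rule are named. Those past the threshold are given in every sample, others by range, and the pathway genes named with values are those past the threshold and others of fixed roles. The members and lists were chosen with earlier results of these data known.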

Additional observations from a re-analysis of the deposited data

How the results depend on the processing

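The count of 1982 genes past the threshold moved to 798 with the replicate block, 3210 with DESeq2 and 4706 without WT-2 and KO-1 together, and ran from 792 to 2192 when single libraries were left out. Equal library totals gave 546 higher and 1466 lower genes, against 927 and 1055, and moved the median of all genes to -0.28 on the log2 scale. On the recovered reads edgeR called 1864 genes, among them the same 15 Wnt genes. Of the Wnt genes 15 passed, and from 9 to 17 when single libraries were left out. The other pathway genes moved from 11 to 4 with the replicate block and 20 without the pair of libraries, and ran from 4 to 11 when single libraries were left out. STK25 had -1.12 with the replicate block (limma adjusted p = 0.0684), and from -1.24 to -1.05 when single libraries were left out. The cause of these moves was not tested.

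Same-numbered libraries did not deviate together (correlations -0.235, -0.400 and 0.169), so the block is only an alternative. With it 11 Wnt genes passed, and WNT5B, RSPO3, SFRP1 and SFRP4 did not. WNT2, FZD2, FZD7, SFRP2, SFRP5, FRZB, DKK1, DKK2 and DKK3 passed in every alternative that tested them. A mean of at least 50 did not test SFRP2, SFRP4 and DKK2. None of the 15 changed sign in the 19 alternatives. Of the 17 that did not pass, 8 did. With equal library totals WNT5A was at -0.23, FZD5 at -0.052 and FZD9 at -0.10, and with equal upper quartiles WNT11 at 0.0036. Without the pair of libraries WNT5A was at -0.045, WNT11 at 0.18, FZD8 at 0.057 and NKD1 at -0.36. Leaving out single libraries gave log2 fold changes from -0.15 to 0.16 for WNT5A, from -0.15 to 0.083 for WNT11, from -0.12 to 0.72 for FZD5, from -0.40 to 0.37 for FZD8, from -0.061 to 0.51 for FZD9, from -1.04 to 0.34 for LRP5, from -0.30 to 0.26 for LRP6 and from -0.17 to 1.12 for NKD1. Depth limits SFRP2, SFRP4 and DKK2, which rest on at most 78 reads in any library.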

Other observations

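The change of GPC3 was followed by a look at 8 other genes of heparan sulphate, the sugar chain through which Wnt ligands are held at the cell surface. They encode glypican core proteins that carry the chain (GPC1, GPC2, GPC5 and GPC6) and enzymes that build it (EXT1 and NDST1) or trim it (SULF1 and SULF2). These genes were chosen after the values of GPC3 had been seen. GPC1, another glypican, fell from 6129 ± 1851 normalized counts (SD, n = 3) in the wild type to 2219 ± 456 in the knockout (log2 fold change -1.44, SE 0.29, limma adjusted p = 0.0167). SULF1, an enzyme that removes sulphate groups from these chains, rose from 93.2 ± 28.1 to 602 ± 221.7 (log2 fold change 2.64, SE 0.39, limma adjusted p = 0.00494). GPC2, GPC6, SULF2, NDST1 and EXT1 did not pass, with log2 fold changes of 0.29, -0.43, 1.02, -0.13 and 0.98 and limma adjusted p-values from 0.106 to 0.824. GPC5 was below the level tested. Over all tested genes 12.8% passed.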
